A study of Mus musculus with 16 samples.

Results

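Brains of newborn mice with 1 intact copy of the gene for connexin 43 (Cx43 heterozygous, 4 arrays) were set against brains of newborn wild-type mice (4 arrays), 8 of the 16 cDNA arrays of the series. The members are the 4 heterozygous and the 4 wild-type columns of the deposited table, chosen by their labels and not by any measured value. Per the labels, the heterozygous mice were C57BL and the wild-type mice C57BL/6j. The other 8 arrays carry brain of newborn Cx43 null mice and of Cx32 null mice, 4 each. The titles of the Cx32 null samples, unlike the others, do not say neonatal. Both null groups entered the model as further groups and are named only where heterozygous brain was set against them. Brain cDNA was labelled with Cy3 and hybridised beside a Cy5 reference pooled from adult tissues, which included brain, heart, liver, kidney and lung. For wild-type replicates 3 and 4 the labels state the dye of the reference only, and the channel label of wild-type replicate 3 carries the number of replicate 2, so the title was followed. Whether a sample was 1 animal or several, how the connexin 43 allele was disrupted and whether the wild-type mice were littermates is not given in the labels, so a p-value here speaks of the spread among samples, which may be technical.

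Connexins are membrane proteins that form gap junctions, channels that join the cytoplasm of neighbouring cells and let ions and small metabolites pass. Connexin 43, the product of Gja1, is the main connexin of astrocytes and is also made by radial glia, meningeal cells and heart muscle. Mice without it die at birth from a heart defect, whereas heterozygotes survive, and in many tissues a single copy leaves less of the protein. In the brain, astrocyte coupling through connexin 43 carries glucose and lactate between cells and spreads potassium released by neurons, and the protein's tail binds cytoskeletal and signalling proteins.

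All values are log ratios of a spot or, for a gene with several spots, the mean over its spots. They were taken as log2 of brain over reference and centred on the median of their array. Changes are differences of such ratios between groups. The labels give neither the log base nor the numerator. The numerator is likely brain, because a list of neuron genes had a higher median than a list of liver plasma proteins on 16 of 16 arrays. On the heterozygous arrays 21293 to 23075 of 28704 spots had a value, and on the wild-type arrays 22001 to 24747. The heterozygous arrays correlated with each other at r = 0.90 to 0.93 across spots and with the wild-type arrays at 0.52 to 0.78. Wild-type replicate 1 stood apart from its own group, with r between 0.68 and 0.76, and array weights estimated from the residuals gave it 0.121. The median SD between the arrays of a group was 0.199 in heterozygous and 0.38 in wild-type brain. In 79 of 1147 windows of 50 neighbouring spots 1 or more arrays failed to follow the rest (stretches out of step), the longest being 600 spots on wild-type replicate 4 and 625 on wild-type replicate 3, and these 2475 spots were left out. In whole tissue, fewer cells of a type and less RNA per cell cannot be told apart.

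Gja1 transcript was lower in heterozygous than in wild-type brain on each array. Its log ratio was -1.09, -1.27, -1.25 and -1.86 on heterozygous replicates 1 to 4, against 2.47, 1.13, 1.48 and 1.17 on wild-type replicates 1 to 4. The groups did not overlap, and wild-type replicate 1 was the highest of the 8. The change was -2.93 ± 0.37 (SE, adjusted p = 8.87e-05), a 7.61-fold lower ratio if the values are log2. In Cx43 null brain, which has no intact copy, Gja1 was at -0.60, -1.71, -2.10 and -2.92. Heterozygous and null brain did not differ beyond the spread (difference 0.47 ± 0.37 (SE, adjusted p = 0.63)), with a SE that leaves room for a difference of either sign. The probe's position in the gene is not given in the sources used here, so it is not known whether a transcript of the disrupted allele would be seen by it. Over the 20 other settings the change in Gja1 stayed past the threshold, between -3.07 and -2.61.

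The promoter of Gja1 is shown because it is the gene whose allele the study changed. The window runs from 250 bases before to 50 after the annotated start (RefSeq, GRCm38.p6, chr10:56377050-56377349, plus strand), and the capitals mark its single match to the AP-1 motif TGANTCA, which starts at base 232.
Gja1 promoter: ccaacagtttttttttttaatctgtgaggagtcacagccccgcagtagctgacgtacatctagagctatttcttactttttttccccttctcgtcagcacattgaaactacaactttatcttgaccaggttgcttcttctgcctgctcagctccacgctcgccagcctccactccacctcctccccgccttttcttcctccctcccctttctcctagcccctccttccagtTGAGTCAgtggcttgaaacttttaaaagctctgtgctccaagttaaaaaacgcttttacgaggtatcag
The motif reads the same on both strands, and 2565 of 32851 RefSeq windows of this length hold it, or 7.81%. The match is a description of these letters and says nothing of binding in these brains.

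Only 3 connexins or pannexins could be measured. Panx1, which encodes the channel-forming protein pannexin 1, had ratios of 4.43, 2.75, 3.74 and 4.26 in heterozygous and 2.91, 1.63, 1.83 and 1.61 in wild-type brain. It rose by 1.80 ± 0.33 (SE, adjusted p = 0.00101), although wild-type replicate 1 lay above heterozygous replicate 2. Gjb5, a connexin known from skin and placenta, was at -0.41, -0.37 and -0.55 on the 3 heterozygous arrays with a value and at -0.83, -0.44, -0.63 and -0.67 in wild-type brain. It did not pass (0.20 ± 0.24 SE, adjusted p = 0.535), with a 95% interval from -0.30 to 0.71.

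**Figure D1:**
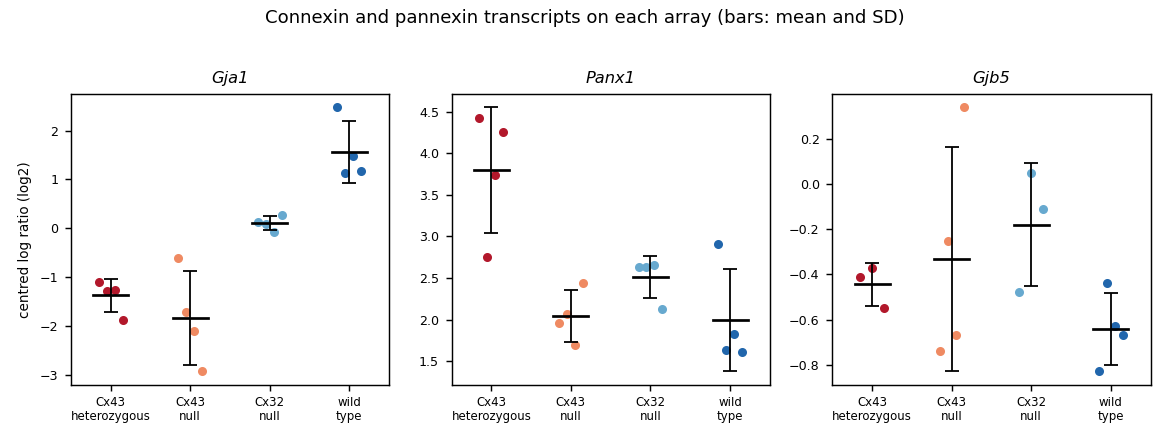
Centred log ratios (log2, vertical axis) of Gja1, Panx1 and Gjb5 on each array, with Cx43 heterozygous on the left, then Cx43 null, Cx32 null and wild type. Points are arrays, and bars are the mean and SD of a group. The 4 heterozygous values of Gja1 lie below 0 and the 4 wild-type values above 0.

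Across the genome the heterozygous and wild-type arrays differed at many transcripts. Of 13529 tested, 4276 passed (31.6%, limma, Benjamini-Hochberg adjusted p under 0.05). Of these, 1856 were higher (13.7%) and 2420 lower (17.9%) in heterozygous brain. Among the 8297 named genes, 1033 rose and 1630 fell (32.1% in all). Large changes were mostly falls: 355 transcripts rose and 1261 fell by at least 2-fold (11.9% of those tested), and 15 rose and 103 fell by at least 4-fold (0.872%). At 4263 transcripts (31.5%) the 8 values did not overlap between the groups. With the values as deposited, not centred, the median change over all transcripts moved by 0.17, and 2916 rose and 1743 fell, so that 62.6% of the calls were rises, against 43.4% after centring, 47.9% after quantile scaling and 51.6% after cyclic loess. Without wild-type replicate 1 the count of transcripts passing was 3839, and in a fit of the 8 arrays alone it was 3010.

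**Figure D2:**
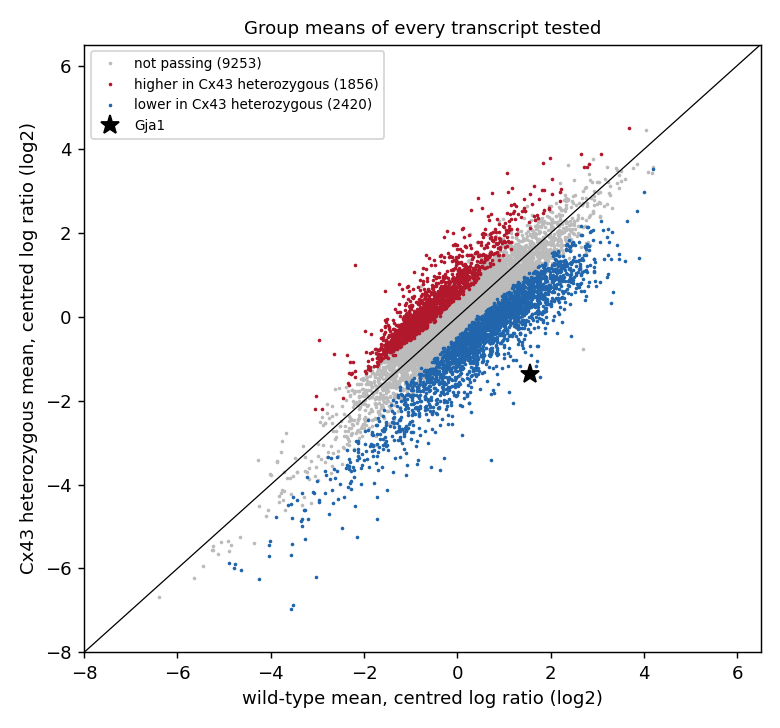
Mean centred log ratio (log2) of each transcript in wild-type brain (horizontal axis) and in Cx43 heterozygous brain (vertical axis), with the line of equal values. Red points are the 1856 transcripts that rose, blue points the 2420 that fell, grey points did not pass, and the star is Gja1 at -1.36 in heterozygous and 1.56 in wild-type brain.

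Fewer transcripts passed between heterozygous brain and the other connexin lines. Against Cx43 null brain 202 transcripts passed (1.49%), and against Cx32 null brain 182 (1.35%). The 3 comparisons share the 4 heterozygous arrays. Against wild type 4276 passed, so most of those transcripts did not pass against either null line. The changes described below are against wild type. They are not shown to be particular to heterozygous brain unless the null lines are given beside them. How much transcripts moved varied with how brain compares with the reference, measured on the 8 null arrays. Their values do not enter the size of a change against wild type. They do enter the estimate of spread and the filter on values, and so the calls. Of 151 transcripts with a mean ratio below -3, 4 rose and 76 fell (median change -0.89). Of 1217 between -3 and -1, 68 rose and 426 fell (median -0.43), and of 10641 between -1 and 1, 1622 rose and 1583 fell (median 0.04). Of 1487 between 1 and 3, 157 rose and 332 fell (median -0.15), and of 33 above 3, 5 rose and 3 fell (median -0.02). A low ratio here marks transcripts that are scarcer in these null brains than in the pooled adult tissues.

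For the genes below whose values are given array by array, the heterozygous and wild-type values did not overlap unless stated. Among the 15 largest falls at named genes whose groups did not overlap were several genes best known from liver, Pon1, Hpx, Rdh7, Plg, Cyp2d9 and Serping1. Serping1, which encodes the C1 inhibitor of the complement cascade, was at -3.66, -3.25, -3.50 and -3.58 in heterozygous brain, against -0.10, -0.59, -1.33 and -1.45 in wild-type brain, a change of -2.63 ± 0.36 (SE, adjusted p = 0.000138). Actr3, a subunit of the Arp2/3 complex that starts actin branches, was at 0.63, 0.78, 0.39 and 0.60 in heterozygous brain and at 3.97, 3.18 and 2.86 on the 3 wild-type arrays with a value. Its change was -2.74 ± 0.42 (SE, adjusted p = 0.000352). Zfp873, which encodes a zinc finger protein, was tightly grouped in heterozygous brain at -0.98, -0.91, -1.10 and -1.17 and spread over 3.04, 2.02, 1.60 and 0.13 in wild-type brain (-2.74 ± 0.46 SE, adjusted p = 0.000554). Gcdh, the mitochondrial glutaryl-CoA dehydrogenase of lysine breakdown, fell by 3.25 (adjusted p = 0.000166), and the predicted gene Gm12966 fell by 2.95 (adjusted p = 2.49e-07). The remaining falls of this set were Neat1, Rab11fip1, 1300017J02Rik and Gprc5a, which fell by 2.64 to 3.02. After cyclic loess scaling 6 of the 15 falls were over 1.5 times smaller, down to 1.73 for Hpx, 1.83 for Cyp2d9, 1.95 for Pon1, 1.96 for Rdh7, 2.03 for Plg and 1.76 for Gprc5a, and Rab11fip1 fell by 1.81 when the stretches out of step were kept.

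The 15 largest rises at named genes ran from 1.78 to 2.41. They were Ubl4b, Nexmif, Rnf24, C030034L19Rik, Myo16, Ntn1, Mier2, Kcp, Cdh18, Hoxb5, Arhgap28, Zfp324, Kat6b, Crlf3 and Aplnr. Kcp, a secreted protein known to enhance BMP signalling, was at 2.29, 2.20 and 1.87 on 3 heterozygous arrays and at -0.16, 0.48, -0.31 and 0.49 in wild-type brain, a change of 2.00 ± 0.24 (SE, adjusted p = 0.00011). Cdh18, a cadherin of neurons, was at 2.59, 3.66 and 2.97 on 3 heterozygous arrays, against 1.51, 1.37 and 0.65 on 3 wild-type arrays (1.90 ± 0.32 SE, adjusted p = 0.000856). Kat6b, a histone acetyltransferase, was at 2.22, 1.02, 1.37 and 2.26 in heterozygous and -0.42, 0.02, 0.32 and -0.32 in wild-type brain (1.82 ± 0.28 SE, adjusted p = 0.000343). Aplnr, the apelin receptor of endothelial cells, was at 0.84, 1.18, 0.73 and 1.34 in heterozygous brain and at -0.74, -0.75 and -0.79 on 3 wild-type arrays (1.78 ± 0.23 SE, adjusted p = 0.000133). Heterozygous replicate 1 was the highest array of its group for Rnf24 at 3.25, Mier2 at 2.68 and Zfp324 at 2.66. Arhgap28 rose by 1.86, but by 0.54 with an adjusted p of 0.0523 when the stretches out of step were kept, where Crlf3 rose by 0.90. On spots with 4 of 4 values Rnf24 rose by 1.29, and on spots with 2 of 4 Arhgap28 rose by 1.22.

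The gene lists differed in how many of their measured genes rose or fell. Over all named genes, 12.5% rose and 19.6% fell. Among lists of at least 10 genes, those with the largest share of falls were detoxification and liver enzymes (62.5%), glycolysis and glucose uptake (47.8%), the citric acid cycle and fatty acid oxidation (47.2%), the proteasome (46.7%) and chaperones (44.7%). Those with the largest share of rises were extracellular matrix and proteases (31.3%), axon guidance and growth (29.8%) and zinc finger proteins named Zfp (23.9%). Several large lists lay near the background in both directions, among them cell cycle and DNA replication with 9 of 70 higher and 11 lower, chromatin with 16 of 107 higher and 23 lower, and solute carriers with 20 of 146 higher and 33 lower.

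**Figure D3:**
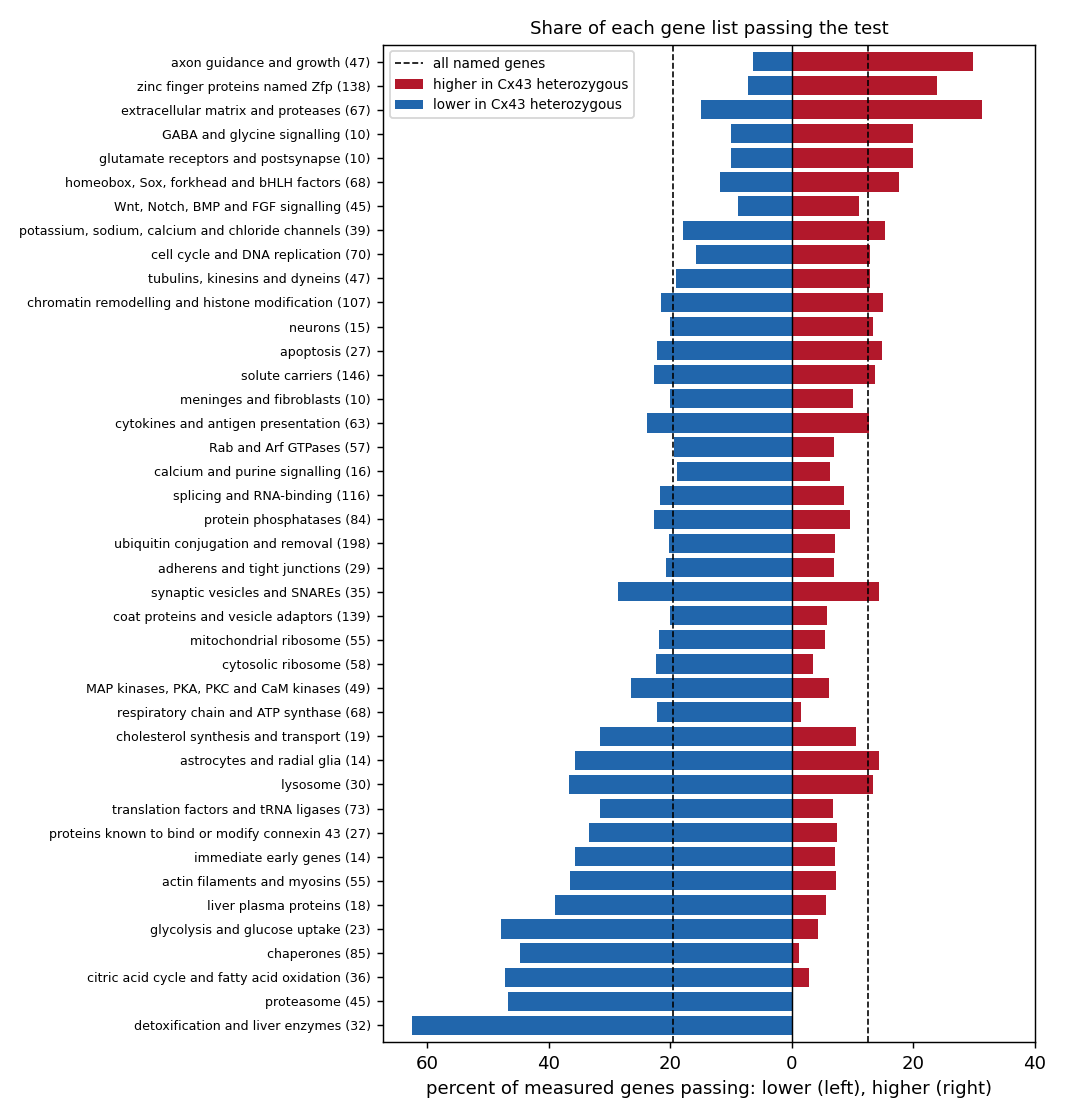
Percent of the measured genes of each list with at least 10 genes that passed, with falls in Cx43 heterozygous brain to the left in blue and rises to the right in red. The number measured is in parentheses, and dashed lines mark the shares over all named genes, 19.6% lower and 12.5% higher. Detoxification and liver enzymes reach 62.5% lower and extracellular matrix and proteases 31.3% higher.

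Nearly all genes of mitochondrial fuel oxidation that passed were lower in heterozygous brain. Of 36 measured genes of the citric acid cycle and fatty acid oxidation, 17 fell, 1 rose and 18 did not pass, with a median change of -0.76, beside -0.07 over all named genes. The median ratio of the list was -1.42, -1.11, -1.10 and -1.31 on the heterozygous arrays, against 0.11, -0.44, -0.44 and -0.90 on the wild-type arrays, so the groups did not overlap. It lay between -1.38 and -0.71 on the 8 null arrays. Acadm, the medium-chain acyl-CoA dehydrogenase that takes the first step on medium-length fatty acids, was at -2.80, -2.88, -2.85 and -2.75 in heterozygous and 0.65, -1.03, -0.91 and -1.85 in wild-type brain (-2.04 ± 0.36 SE, adjusted p = 0.000858). Hadha, the large subunit of the trifunctional protein that carries out the later steps on long chains, was at -2.23, -2.42, -2.10 and -2.04 in heterozygous brain, against -0.19, -0.01, 0.07 and -0.85 in wild-type brain (-1.95 ± 0.26 SE, adjusted p = 0.000129). Acadvl, the very-long-chain dehydrogenase, fell by 1.75 and Hadhb, the partner of Hadha, by 1.43, both picked after their values were seen. Hadhb fell by 0.53 with an adjusted p of 0.173 after cyclic loess. Against this trend, Acaa2, the thiolase that ends each round of mitochondrial oxidation, was at -0.95, -0.32, -0.94 and -0.85 in heterozygous and -1.06, -1.88, -2.04 and -1.99 in wild-type brain and rose by 0.98 ± 0.25 (SE, adjusted p = 0.00707). Without wild-type replicate 1, 16 of the 36 genes fell and 1 rose, with a median of -0.47.

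The neighbouring energy lists are given for comparison. Of 23 genes of glycolysis and glucose uptake, 11 fell and 1 rose, with a median of -0.73. Pdk2, a kinase that switches off pyruvate dehydrogenase, was at -1.23, -1.77 and -0.80 on 3 heterozygous arrays and 1.10, -0.08, 0.23 and 0.31 in wild-type brain (-1.65 ± 0.39 SE, adjusted p = 0.00536). Of 68 respiratory chain and ATP synthase genes, 15 fell and 1 rose, a share of falls of 22.1% that is close to the 19.6% of all named genes, although the median was -0.40. Ndufv1, a complex I subunit that binds NADH, was at -1.19, -0.84, -1.08 and -0.97 in heterozygous brain and 1.95, 1.46, 1.51 and -0.14 in wild-type brain (-2.21 ± 0.36 SE, adjusted p = 0.000425). Without wild-type replicate 1 the median of the glycolysis list was -0.44 and that of the respiratory chain list -0.11.

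Genes of protein synthesis and folding were also lower in many cases. Of 73 translation factors and tRNA ligases, 23 fell and 5 rose (median -0.42), and their median ratio was 0.16, 0.12, 0.19 and 0.18 on the heterozygous arrays, against 0.88, 0.52, 0.51 and 0.50 on the wild-type arrays. Eef2, the elongation factor that moves the ribosome along the message, was at -0.11, 0.24, 0.41 and 0.28 in heterozygous and 2.54, 2.70, 2.34 and 1.60 in wild-type brain (-2.09 ± 0.32 SE, adjusted p = 0.000317). Pabpc1, the cytoplasmic poly(A)-binding protein, was at -0.41, -0.43, -0.13 and -0.12 in heterozygous and 3.13, 1.66, 1.03 and 0.76 in wild-type brain (-1.92 ± 0.42 SE, adjusted p = 0.00326). The rises included Cars, the cytosolic cysteine tRNA ligase (0.94 ± 0.24 SE, adjusted p = 0.00834), and Ears2, the mitochondrial glutamate tRNA ligase (0.72 ± 0.21 SE, adjusted p = 0.0137). Ribosomal protein genes had shares of falls of 22.4% and 21.8%, near the 19.6% of all named genes. Of 58 cytosolic ones 13 fell and 2 rose (median -0.27), with Rps14 at -1.90 ± 0.42 (SE, adjusted p = 0.00332) and Rpl15 at -1.62 ± 0.33 (SE, adjusted p = 0.00216), and of 55 mitochondrial ones 12 fell and 3 rose (median -0.15). Without wild-type replicate 1 these medians were -0.03 for the cytosolic and 0.01 for the mitochondrial list, and with the values as deposited 8 mitochondrial ones rose and 7 fell.

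Of 85 chaperone genes, 38 fell and 1 rose, with a median of -0.54. Cct6a, a subunit of the ring-shaped chaperonin that folds actin and tubulin, was at 0.20, 0.21, 0.19 and 0.28 in heterozygous brain (SD 0.04) and at 2.25, 1.85, 1.94 and 1.56 in wild-type brain (-1.68 ± 0.19 SE, adjusted p = 4.62e-05). Bag5, which binds Hsp70 proteins, was at -1.74, -1.61, -1.79 and -1.72 in heterozygous and 1.63, 0.45, -0.14 and -0.03 in wild-type brain (-2.19 ± 0.36 SE, adjusted p = 0.000465). Of the chaperones of the endoplasmic reticulum, Pdia6, a disulfide isomerase, was at -0.29, -0.32, -0.71 and -0.37 in heterozygous brain and 3.05, 1.33, 0.54 and 0.91 in wild-type brain (-1.88 ± 0.42 SE, adjusted p = 0.00353). Hspa5, the Hsp70 protein of that compartment, also known as BiP, was at -0.82, -0.76, -1.0 and -0.78 in heterozygous and 1.67, 0.25, -0.75 and 0.16 in wild-type brain (-1.18 ± 0.35 SE, adjusted p = 0.0166). Its call was lost in the 8 arrays alone (adjusted p = 0.0589), and its change was -0.73 without wild-type replicate 1, whose value of 1.67 was the highest. Cct6a and Hspa5 were named after their values were seen. So were Calr and Canx, 2 lectin chaperones of the endoplasmic reticulum that did not pass (-0.64 ± 0.25 (SE, adjusted p = 0.0537) and -0.35 ± 0.32 (SE, adjusted p = 0.418)). Calr passed under 5 of 20 settings, among them the one without wild-type replicate 1, where it changed by -0.93 (adjusted p = 0.00211). Without wild-type replicate 1, 33 chaperone genes fell and 3 rose.

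The promoters of Pdia6 (chr12:17266339-17266638, plus strand) and Hspa5 (chr2:34771840-34772139, plus strand) are shown because both genes fell and both windows hold the endoplasmic reticulum stress response element, CCAAT and CCACG with 9 bases between them, in capitals. The windows are of the same kind and source as that of Gja1.
Pdia6 promoter: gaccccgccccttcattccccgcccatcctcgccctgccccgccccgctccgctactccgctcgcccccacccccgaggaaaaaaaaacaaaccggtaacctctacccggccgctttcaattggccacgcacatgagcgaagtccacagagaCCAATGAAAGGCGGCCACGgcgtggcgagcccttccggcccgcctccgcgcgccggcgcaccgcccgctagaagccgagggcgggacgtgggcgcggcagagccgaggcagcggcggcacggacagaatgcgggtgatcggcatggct
Hspa5 promoter: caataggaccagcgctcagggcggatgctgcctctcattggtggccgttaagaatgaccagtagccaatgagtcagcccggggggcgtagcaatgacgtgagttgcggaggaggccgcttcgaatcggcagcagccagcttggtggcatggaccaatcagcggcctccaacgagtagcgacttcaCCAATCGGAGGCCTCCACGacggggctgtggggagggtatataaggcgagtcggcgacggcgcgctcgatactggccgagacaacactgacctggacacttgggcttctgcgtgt
The match starts at base 153 in Pdia6 and at base 186 in Hspa5. On both strands, 39 of 32851 windows hold the element, or 0.119%. Of the 19 measured genes among them, 5 fell and 2 rose, and the others did not pass. Over all named genes 19.6% fell and 12.5% rose. Calr and Canx, which did not pass, also hold the element. The 2 promoters shown were thus picked from carriers that moved in different ways. The count is given as a description and holds no more than the letters searched.

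In the breakdown machinery, 21 of 45 proteasome genes fell and none rose (median -0.62), a list in which 14 fell without wild-type replicate 1 and 11 with the values as deposited. Psmd4, a ubiquitin receptor of the cap, was at -0.43, -0.09, -0.10 and -0.44 in heterozygous and 1.81, 1.32, 1.33 and 0.88 in wild-type brain (-1.60 ± 0.25 SE, adjusted p = 0.00034). Ubiquitin enzymes were near the background, with 40 of 198 lower and 14 higher. Of 30 lysosomal genes 11 fell and 4 rose (median -0.38). Without wild-type replicate 1 the proteasome median was -0.34 and the lysosomal one -0.20. Psap, the precursor of the saposins that help degrade sphingolipids, was at -0.26, 0.16, -0.05 and 0.06 in heterozygous brain and 0.93, 2.16, 2.15 and 1.81 in wild-type brain (-1.79 ± 0.33 SE, adjusted p = 0.000968). Of 19 genes of cholesterol synthesis and transport 6 fell and 2 rose. Fdft1, the squalene synthase, was at -0.27, -0.35, -0.52 and -0.39 in heterozygous and 2.67, 2.74, 2.36 and 0.80 in wild-type brain (-2.53 ± 0.43 SE, adjusted p = 0.000577), whereas Hmgcs1, an earlier enzyme of the same pathway, rose by 0.98 ± 0.22 (SE, adjusted p = 0.00318).

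Of 27 genes for proteins known to bind or modify connexin 43, 9 fell and 2 rose (median -0.26). Ctnnb1, which encodes beta-catenin of adherens junctions and Wnt signalling, was at 1.13, 1.67, 1.23 and 1.98 in heterozygous and 3.84, 3.23, 3.61 and 3.15 in wild-type brain (-1.95 ± 0.27 SE, adjusted p = 0.000164). On the spots with 4 of 4 values it changed by -0.85 with an adjusted p of 0.11. Cnn1, the calponin of smooth muscle, was at -3.63, -2.93, -3.47 and -2.99 in heterozygous brain and -1.23, -1.16, -1.35 and -0.70 in wild-type brain (-2.14 ± 0.31 SE, adjusted p = 0.000185). Tjp1, which encodes the scaffold protein ZO-1 that binds the tail of connexin 43, did not pass, with a change of 0.12. It is outside the rule by which genes were named. Of 29 adherens and tight junction genes 6 fell and 2 rose. F11r, a junctional adhesion molecule of endothelium and epithelium, was at -2.63, -2.32, -2.80 and -2.48 in heterozygous and -1.08, -0.84, -1.04 and -1.16 in wild-type brain (-1.53 ± 0.20 SE, adjusted p = 0.000103).

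Of 55 actin and myosin genes 20 fell and 4 rose (median -0.35), Actr3 among the falls and the unconventional myosin Myo16 among the rises. Wasf3, which activates the Arp2/3 complex, was at -0.25, -0.28, 0.32 and 0.25 in heterozygous and -1.62, -0.98, -0.50 and -0.78 in wild-type brain and rose by 0.98 ± 0.24 (SE, adjusted p = 0.00578), opposite to Actr3. Of 47 tubulin, kinesin and dynein genes 9 fell and 6 rose. Kif9 fell by 2.12 and Kif7, a kinesin of the primary cilium and hedgehog signalling, rose by 1.21 ± 0.23 (SE, adjusted p = 0.00117), with 1.36, 1.15, 0.32 and 0.62 in heterozygous and -0.61, -0.19, -0.55 and -0.03 in wild-type brain.

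Most axon guidance genes that passed were higher. Of 47 measured genes 14 rose and 3 fell (median 0.31), and 13 rose and 3 fell without wild-type replicate 1. Epha8, an ephrin receptor, was at 1.07, 1.00, 0.74 and 0.89 in heterozygous brain and -1.32, -0.50, -0.78 and -0.01 in wild-type brain (1.58 ± 0.26 SE, adjusted p = 0.000516). The rises also took in the secreted cue Ntn1, at 2.04 ± 0.33 (SE, adjusted p = 0.00047). Nav3, a microtubule-binding protein of growing neurites, went the other way. It was at -0.85, -0.70, -0.47 and -0.72 in heterozygous and 0.70, 2.32, 2.17 and 1.73 in wild-type brain (-2.42 ± 0.27 SE, adjusted p = 4.62e-05). The median ratio of the whole list nevertheless overlapped between the groups, from 1.04 to 1.19 on the heterozygous and from 0.49 to 1.15 on the wild-type arrays.

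Genes of the synapse moved both ways. So did named genes at large, of which 12.5% rose and 19.6% fell, so movement in both directions does not by itself set the synaptic lists apart. Of 35 synaptic vesicle and SNARE genes 10 fell and 5 rose, whereas 6 fell and 9 rose with the values as deposited and 8 fell and 8 rose after cyclic loess. Syn1, which tethers vesicles to actin, was at -0.35, -0.03, -1.27 and -0.93 in heterozygous and 1.47, 1.69, 0.82 and 1.17 in wild-type brain (-1.93 ± 0.27 SE, adjusted p = 0.000164). Sv2a, a membrane protein of the vesicle, was at 1.69, 1.82, 1.77 and 1.61 in heterozygous brain and 3.36, 3.18 and 3.72 on 3 wild-type arrays (-1.70 ± 0.37 SE, adjusted p = 0.00327). Syt1, the calcium sensor of release, fell by 1.20, and Stx6, a SNARE of the Golgi and endosomes, rose by 0.96. Of 10 genes of the glutamatergic synapse 2 rose and 1 fell. Dlgap3, a scaffold of the postsynaptic density, was at 0.27, 0.29, 0.28 and 0.09 in heterozygous and -1.04, -0.65, -0.59 and -0.39 in wild-type brain (0.90 ± 0.17 SE, adjusted p = 0.00115). Of 10 GABA and glycine genes 2 rose and 1 fell. Gabra3, a GABA receptor subunit prominent early in life, was at 1.29, 1.02, 1.22 and 1.00 in heterozygous and 2.24, 2.30, 1.82 and 2.34 in wild-type brain (-1.05 ± 0.18 SE, adjusted p = 0.000658). Ion channel genes were split, with 6 of 39 higher (15.4%) and 7 lower (17.9%), near the shares over all named genes. The sodium channel subunit gene Scn2b was at -0.64, -0.66, -0.99 and -1.31 in heterozygous brain, against 0.77, 0.87, 0.84 and 0.19 in wild-type brain (-1.57 ± 0.38 SE, adjusted p = 0.00601), and the calcium channel subunit gene Cacnb2 at -0.20, -0.12, -0.08 and -0.10 in heterozygous brain, against -1.68, -0.92, -1.11 and -0.49 in wild-type brain (0.93 ± 0.21 SE, adjusted p = 0.00454). Of 16 calcium and purine signalling genes 3 fell and 1 rose, whereas 2 fell and 5 rose with the values as deposited. Stim1, the calcium sensor of the endoplasmic reticulum, was at -0.51, -0.62, -0.90 and -0.85 in heterozygous and 0.94, 0.35, 0.15 and 0.16 in wild-type brain (-1.12 ± 0.21 SE, adjusted p = 0.00122).

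Of 67 genes of the extracellular matrix and of proteases, 21 rose and 10 fell, with a median of 0.27. The median ratio of the list was -0.05, 0.01, 0.00 and 0.06 on the heterozygous arrays, above the -0.27, -0.24, -0.18 and -0.24 of the wild-type arrays. Col6a6, a collagen VI chain, was at 0.64, 0.45, 1.08 and 0.37 in heterozygous brain and -2.12, -0.53, -1.04 and -0.47 in wild-type brain (1.68 ± 0.29 SE, adjusted p = 0.000689). Dcn, which encodes decorin, a small proteoglycan of fibroblasts and meninges, was at -2.70, -2.18, -2.84 and -2.60 in heterozygous brain and -0.62, -0.13 and -0.37 on 3 wild-type arrays (-2.21 ± 0.41 SE, adjusted p = 0.00124). In the 8 arrays alone 13 genes of the list rose and 8 fell.

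Of 68 homeobox, Sox, forkhead and bHLH factors 12 rose and 8 fell (median 0.24). Otx2, which patterns forebrain and midbrain and is kept on in the choroid plexus, was at 2.40, 2.57, 2.06 and 2.74 in heterozygous and 0.19, 1.02, 0.84 and 0.88 in wild-type brain (1.71 ± 0.23 SE, adjusted p = 0.000122). Hoxb5, a homeobox gene of the hindbrain and spinal cord, was at 1.22, 0.92, 2.19 and 0.32 in heterozygous brain and -1.0, -0.74, -0.54 and -0.66 in wild-type brain (1.90 ± 0.49 SE, adjusted p = 0.00866), and Hoxc9, of the thoracic cord, was at -2.26, -1.62, -2.11 and -2.35 in heterozygous brain and 0.53, -0.78 and -1.11 on 3 wild-type arrays (-1.63 ± 0.35 SE, adjusted p = 0.00288). The zinc finger genes named Zfp, many of which encode DNA-binding repressors, had 33 of 138 higher and 10 lower. Zfp407 was at 2.67, 1.59, 1.12 and 1.23 in heterozygous brain, against 0.39, 0.31, 0.40 and 0.09 in wild-type brain (1.36 ± 0.29 SE, adjusted p = 0.00258), and Zfp219 fell by 1.30. Of 45 Wnt, Notch, BMP and FGF genes 5 rose and 4 fell. Smad4, the shared mediator of TGF-beta and BMP signals, was at 0.86, 0.83, 0.68 and 0.84 in heterozygous and 2.12, 2.87, 3.14 and 1.84 in wild-type brain (-1.69 ± 0.29 SE, adjusted p = 0.000716). Tgfbr2, the receptor upstream of it, fell by 0.92, and the Wnt receptor gene Fzd3 rose by 0.84.

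Cell type markers were counted beside these groups. Of 15 neuron markers 3 fell and 2 rose, and the median level of the list overlapped between the groups, at 1.95 to 2.33 on the heterozygous and 2.07 to 2.66 on the wild-type arrays. Of 14 astrocyte and radial glia markers, the cells in which connexin 43 is best known, 5 fell and 2 rose, and the median of the list was 0.20 to 0.54 on the heterozygous arrays and 0.58 to 1.29 on the wild-type arrays. The excess of falls in the astrocyte list depended on the setting: 5 fell and 5 rose without wild-type replicate 1 (median -0.14, against -0.34 with it), 4 fell and 4 rose with the values as deposited, and 4 fell and 5 rose after cyclic loess. Ndrg2, an astrocyte protein, was at -1.31, -1.12, -1.11 and -1.15 in heterozygous and 1.02, 1.14, 0.77 and 0.35 in wild-type brain (-1.99 ± 0.31 SE, adjusted p = 0.000343), and its less changed spot alone gave -1.21. Sparcl1, which astrocytes secrete to promote synapses, was at 0.03, 0.27, 0.39 and 0.15 in heterozygous and 2.32, 1.84, 1.99 and 1.40 in wild-type brain (-1.67 ± 0.28 SE, adjusted p = 0.000492). The 2 rises of this list were Fabp7 (0.81, adjusted p = 0.022) and Tnc (0.74, adjusted p = 0.041). The call of Fabp7 was lost under 4 of 20 settings and that of Tnc under 8. Of 9 microglia and macrophage markers 3 rose and 2 fell. Itgam, an integrin chain of microglia, was at 0.50, 0.13, 0.86 and 0.45 in heterozygous brain and -1.85, -0.74, -0.50 and -0.58 in wild-type brain (1.40 ± 0.27 SE, adjusted p = 0.00132). C1qb, the complement component, was at -1.49, -1.46, -1.81 and -1.53 in heterozygous and -0.41, -0.07, -0.30 and -0.63 in wild-type brain (-1.22 ± 0.23 SE, adjusted p = 0.0012).

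Markers of blood, muscle, skin and liver that passed were lower, with 1 exception in the plasma protein list. Of 9 red cell markers 4 fell and none rose, with Alas2, the first enzyme of haem synthesis in red cells, at -1.63 ± 0.30 (SE, adjusted p = 0.00117). Of 8 muscle and heart markers 5 fell and none rose, with the sarcomere protein gene Actn2 at -4.61, -3.92, -5.56 and -4.0 in heterozygous brain, against -1.85, -2.30, -1.60 and -3.02 in wild-type brain (-2.33 ± 0.33 SE, adjusted p = 0.000185). Actn2 changed by -1.27 after cyclic loess. After quantile scaling 1 of the 8 fell, and after cyclic loess 1 rose and 1 fell. Of 4 skin markers 2 fell, and the keratin gene Krt10 changed by -2.26 ± 0.40 (SE, adjusted p = 0.00104). Of 32 detoxification and liver enzyme genes 20 fell and none rose (median -0.98), and after cyclic loess 12 fell and 4 rose. Of 18 liver plasma protein genes 7 fell and 1 rose, and the median of this list changed sign with the scaling, from -0.40 after centring to 0.22 after quantile scaling and 0.52 after cyclic loess. Of 7 endothelial markers 1 rose and 1 fell, of 10 meningeal markers 1 rose and 2 fell, and of 5 choroid plexus and ependyma markers 2 rose. Of the 2 oligodendrocyte and myelin markers, Pdgfra did not pass (0.33, adjusted p = 0.391). Mbp had a change of -0.84 ± 0.25 (SE, adjusted p = 0.0183), a call lost under 4 of 20 settings including the one without wild-type replicate 1 (adjusted p = 0.0511). The part of these cell types and of the scaling in the other changes was not tested.

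**Figure D4:**
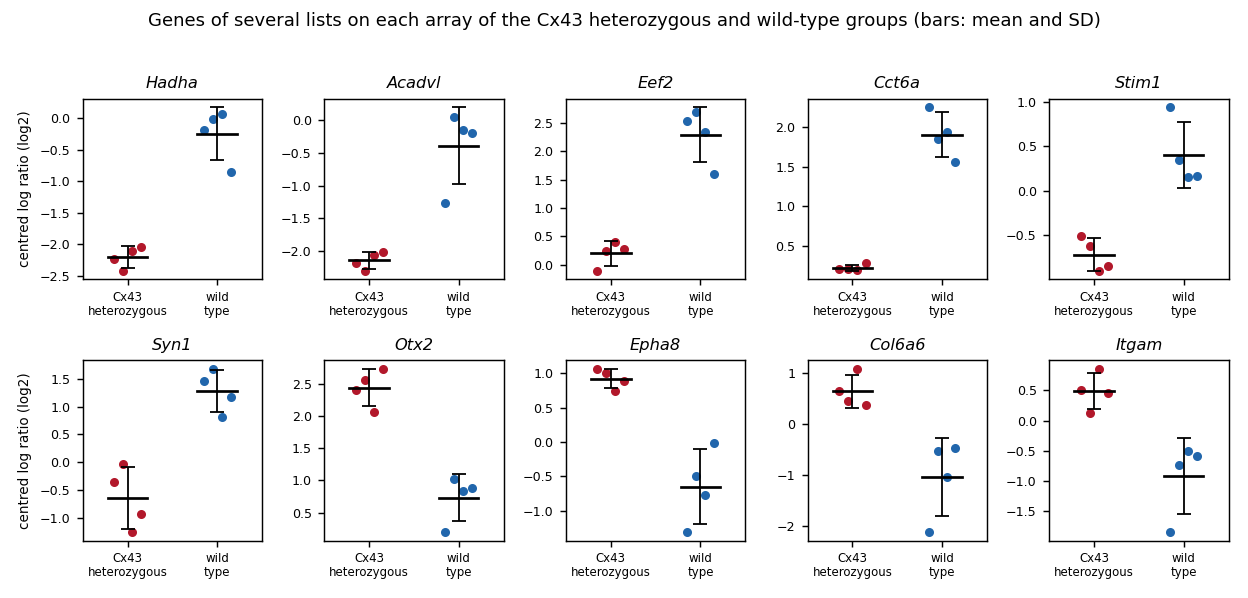
Centred log ratio (log2, vertical axis) of 10 genes on each array of the Cx43 heterozygous (left, red) and wild-type (right, blue) groups, with the mean and SD. Hadha, Acadvl, Eef2, Cct6a, Stim1 and Syn1 lie lower and Otx2, Epha8, Col6a6 and Itgam higher in heterozygous brain, with no overlap of the values.

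The remaining lists were counted in the same way, and several changed direction with the scaling. Of 116 splicing and RNA-binding genes 10 rose and 25 fell, of 57 Rab and Arf genes 4 rose and 11 fell, and of 139 coat and adaptor genes 8 rose and 28 fell. Rab and Arf genes had 12 rises and 7 falls with the values as deposited, 7 and 6 after quantile scaling and 9 and 7 after cyclic loess, and coat and adaptor genes had 15 and 14 with the values as deposited. Of 49 MAP kinase, PKA, PKC and CaM kinase genes 3 rose and 13 fell, and of 84 phosphatase genes 8 rose and 19 fell. Of 27 apoptosis genes 4 rose and 6 fell, of 63 cytokine and antigen presentation genes 8 rose and 15 fell, and of 14 immediate early genes 1 rose and 5 fell. Over all lists of at least 10 genes, 34 had more falls than rises. Of these, 13 had more rises than falls with the values as deposited, 5 after cyclic loess and 2 after quantile scaling. With the values as deposited these included the cell cycle, splicing, chromatin, ion channel, solute carrier, apoptosis, cytokine and immediate early lists.

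A small set of transcripts set heterozygous brain apart from each other group. At 75 transcripts (0.554%), 46 higher and 29 lower, heterozygous brain passed against wild type, Cx43 null and Cx32 null brain in the same direction. Of these 33 are named, 17 higher and 16 lower, and except for those the rule selects they are named here after their values were seen. Nav3 was at -0.85, -0.70, -0.47 and -0.72 in heterozygous brain, against means of 1.63 ± 0.27 in Cx43 null, 1.80 ± 0.23 in Cx32 null and 1.73 ± 0.73 in wild-type brain (SD, n = 4 each). It differed from Cx43 null by -2.32 ± 0.27 (SE, adjusted p = 0.000352) and from Cx32 null by -2.48 ± 0.27 (SE, adjusted p = 0.000168). Ednrb, the endothelin receptor of astrocytes and neural crest cells, was at -0.68, -0.79, -0.62 and 0.54 in heterozygous brain, against means of 1.66 ± 0.21 in Cx43 null (SD, n = 4) and 1.71 ± 0.09 in Cx32 null brain (SD, n = 4) and 1.88 ± 0.22 on 3 wild-type arrays. Vash2, which promotes vessel growth, averaged 0.10 ± 0.23 in heterozygous, 1.69 ± 0.56 in Cx43 null, 2.15 ± 0.16 in Cx32 null and 1.80 ± 0.22 in wild-type brain (SD, n = 4 each). Gatm, which makes the precursor of creatine, averaged -0.38 ± 0.26 in heterozygous, 0.81 ± 0.47 in Cx43 null, 0.65 ± 0.19 in Cx32 null and 1.21 ± 0.34 in wild-type brain. Gprc5a, Lcn2 and Cct6a were lower in heterozygous brain than in each other group too.

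On the higher side, Tenm3, a teneurin that guides synaptic partners, averaged 2.34 ± 0.14 in heterozygous, 1.44 ± 0.20 in Cx43 null, 1.17 ± 0.14 in Cx32 null and 1.23 ± 0.25 in wild-type brain (SD, n = 4 each). Otx2 averaged 2.45 ± 0.29 in heterozygous, 1.36 ± 0.34 in Cx43 null, 1.17 ± 0.29 in Cx32 null and 0.73 ± 0.37 in wild-type brain. Acaa2 averaged -0.76 ± 0.30 in heterozygous, -2.20 ± 0.44 in Cx43 null, -2.38 ± 0.19 in Cx32 null and -1.74 ± 0.46 in wild-type brain, so the thiolase that rose against its pathway was also above both null lines. Clspn, a checkpoint protein of DNA replication, was at 0.97, 1.26 and 0.09 on 3 heterozygous arrays, against means of -0.32 ± 0.20 in Cx43 null, -0.30 ± 0.15 in Cx32 null and -0.74 ± 0.13 in wild-type brain. Ctss, the lysosomal protease of microglia, was at -1.43, -1.45, 0.52 and -1.17 in heterozygous brain and -1.96, -3.08, -3.44 and -2.12 in wild-type brain (1.77 ± 0.47 SE, adjusted p = 0.00961), with heterozygous replicate 3 far above the rest of its group. The size of this set depended on single arrays: without wild-type replicate 1 it held 131 transcripts, all 75 among them, without Cx32 null replicate 2 it held 35, without heterozygous replicate 1 it held 40, and without Cx43 null replicate 2 it held 45.

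**Figure D5:**
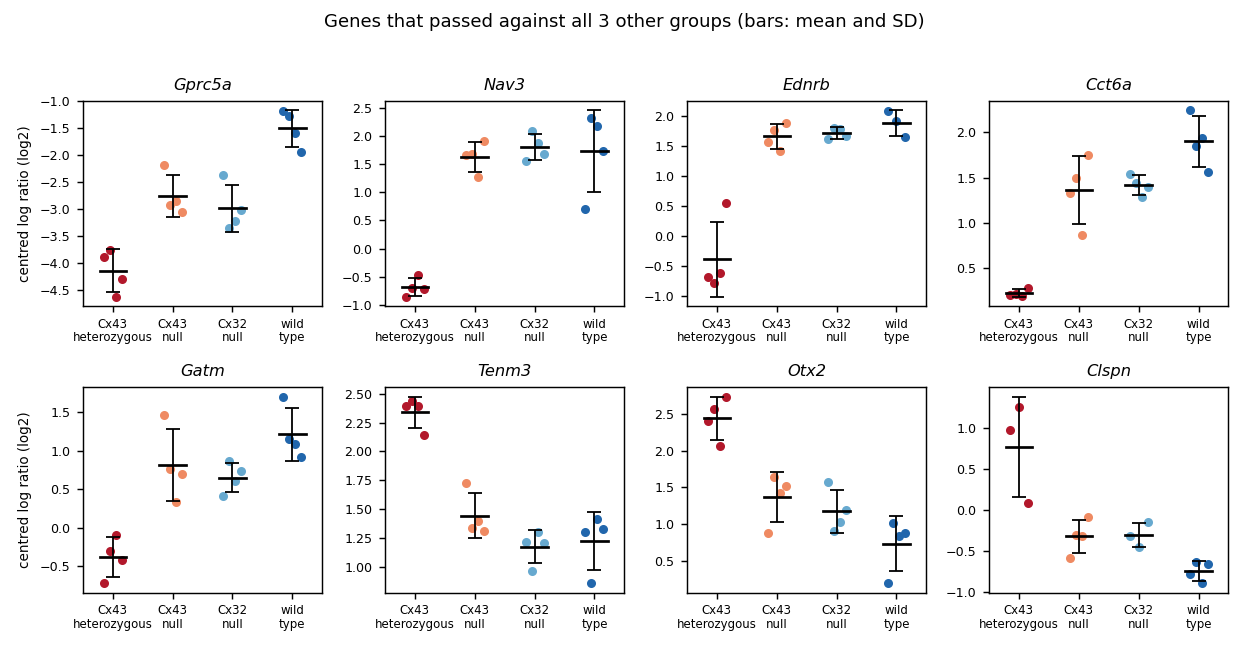
Centred log ratios (log2, vertical axis) of 8 genes that passed against all 3 other groups, with Cx43 heterozygous on the left, then Cx43 null, Cx32 null and wild type. Points are arrays, and bars are the mean and SD. Gprc5a, Nav3, Ednrb, Cct6a and Gatm are lowest and Tenm3, Otx2 and Clspn highest in heterozygous brain by group mean.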

How the data were processed

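Each deposited value is the log ratio of a spot on an array and was read as log2. Brain cDNA was labelled with Cy3 and the reference with Cy5, per the labels. The log base, the numerator, the normalization within an array and the reason for empty cells are not given in the sources used here, and no intensities were used, so signal over background is not known. Single symbols came from the platform annotation for 18511 of 28704 spots, updated through the gene identifier for 18267. Another 937 spots list several symbols, 9256 have no entry, and each unnamed spot was tested on its own.

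Each array was centred on its median. Spots in windows of 50 (step 25) whose Spearman correlation with the other arrays fell below a fraction of 0.5 of that array's own median were left out. A spot needed at least 3 of 4 values in each group, which kept 18493. Spots of a symbol were averaged, giving 13529 transcripts, 8297 of them named. All 16 arrays entered 1 fit of 4 group means (limma 3.58.1, lmFit and eBayes, 2-sided, R 4.3.3), and p-values were adjusted over all transcripts by Benjamini-Hochberg, with 0.05 as the threshold. On simulated data with 13529 transcripts, 52 of 100 changes of 1 log2 unit and 95 of 100 changes of 2 units between heterozygous and wild-type arrays were recovered, and 3.29% of the calls were false. The simulation gave all groups the same spread per transcript, drew arrays independently and changed few transcripts. In the data the median SD was 0.199 in heterozygous and 0.38 in wild-type brain, and 31.6% of transcripts passed. The simulated rates therefore need not hold for this comparison. The number of arrays limits the precision.

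The members and the 49 gene lists were chosen with earlier results of these data known, so lists are described by counts and medians, without a test. The rule for named genes takes Gja1 and the measured connexins and pannexins, the 15 largest rises and the 15 largest falls that passed without overlap of the 8 values, up to 2 passing members per list and direction, and every member of lists with at most 6 measured. It selects 183 genes. The text describes a part of them, mostly those that kept their call under each of the 20 alternatives in which they were tested. It says where a gene outside the rule was named. Promoters are RefSeq windows on GRCm38.p6. The build behind the arrays is not given, so no other coordinates are printed.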

Additional observations from a re-analysis of the deposited data

Results flagged for a closer look

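For most genes named in the text, each group of 4 was checked for an array far from the other 3. Of 174 groups with 4 values, 10 held such an array, where chance alone gives about 1 in 20. Wild-type replicate 1 accounted for 5 of the 10. Panx1 was at 2.91 on that array, against 1.61 to 1.83 on the other wild-type arrays. On the same array Rab11fip1 was at 2.81, against 1.15 to 1.39, Acaa2 at -1.06, against -2.04 to -1.88, Plg at -2.88, against -1.43 to -1.21, and C030034L19Rik at -1.39, against -0.52 to -0.37. Scn2b was at 0.19 on wild-type replicate 4, below the 0.77 to 0.87 of the others. Among the heterozygous arrays, Ctss was at 0.52 on replicate 3, against -1.45 to -1.17, and Acaa2 at -0.32 on replicate 2, against -0.95 to -0.85. Ednrb was at 0.54 on heterozygous replicate 4, against -0.79 to -0.62, and Dlgap3 at 0.09 on the same array, against 0.27 to 0.29.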

How the results depend on the processing

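With each array left out in turn, between 3116 and 4831 transcripts passed between heterozygous and wild-type brain, 1271 to 2217 of them higher and 1845 to 2614 lower, and Gja1 changed by -3.07 to -2.62. Rises numbered 2916 with the values as deposited. In the 8 arrays alone 3010 transcripts passed, 1214 of them rises. That fit rests on fewer samples and takes no spread from the null arrays. The median SD was 0.38 in wild-type, 0.199 in heterozygous, 0.269 in Cx43 null and 0.213 in Cx32 null brain. Against Cx43 null brain 83 to 399 transcripts passed with 1 of the 16 arrays left out, against Cx32 null brain 67 to 330, and against all 3 groups in 1 direction 35 to 131, alternatives chosen after seeing the data. Each highest count came without wild-type replicate 1, and the cause was not tested. The replicate numbers were not used as pairs in the main fit. Deviations of same-numbered heterozygous and wild-type arrays correlated at -0.095 to 0.087, and those of differently numbered ones at -0.179 to 0.182. With 4 arrays in a group, this cannot decide whether samples were paired. With the replicate block 4281 transcripts passed, against 4276 without it. Of the 176 genes selected by the naming rule that passed, 125 passed under each alternative in which they were tested and 171 kept their sign there. The alternatives number 20, and some genes were tested in 19 of them. The other 5 changed sign. Pfkfb3 changed by -0.55, Dbn1 by -0.18, Gfra1 by 0.40 and Igf2 by -0.32 at the spot with the largest p, Igf2 by -0.32 on spots with 4 of 4 values, and Dync2li1 by -0.07 with stretches out of step kept. The 8 arrays alone lost 29 of these calls, quantile scaling 12 and cyclic loess 7. Spots of 1 gene disagreed at times: of 3374 genes with several spots, 523 had at least 2 that passed in 1 direction and 192 had spots that passed in opposite directions.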
